A study of Mus musculus with 9 samples.

Results

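The genes described here are 32 markers of macrophages and other leukocytes, read out in cultures of mouse embryonic fibroblasts, and they are 32 of the 22068 genes in the count table. They were chosen by name. Siglecg, an inhibitory lectin of B cells and other leukocytes, was picked because it was among the genes lower with eutherian CRX than with control in an earlier look at these libraries, and the other 31 were set around it as markers of blood cells that a primary culture may hold. What Siglecg does in that comparison is therefore how it was chosen and is given as a description.

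RNA-seq of polyA RNA was made from 9 libraries of primary C57Bl/6 fibroblasts at passage 2, with 3 libraries per condition. The cells were electroporated with a plasmid that carried a puromycin resistance gene and either no homeobox gene (control), the human CRX gene (eutherian CRX) or the opossum CRX gene (metatherian CRX), both V5-tagged. The labels give 5 days of puromycin and 48 hours of recovery in all 3 conditions. The study describes the RNA as harvested in triplicate per condition, and nothing says that the 3 libraries came from separate cultures, so p-values measure the spread between these libraries, which may be technical.

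Macrophages are phagocytes of the myeloid lineage. They depend on signalling through the CSF1 receptor, which is fed by CSF1 from fibroblasts and other stromal cells, and the transcription factor PU.1, the product of Spi1, drives much of their gene programme. They bind antibody-coated and dying material through Fc and scavenger receptors, signal through the ITAM adaptors TYROBP and the Fc receptor gamma chain, digest in lysosomes and secrete lysozyme and complement C1q. Embryos contain tissue macrophages, and cells isolated from embryos for culture can carry them along.

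The cultures had the expression of fibroblasts, with the leukocyte markers at a low level beside it. FPKM (counts per kilobase of merged exon, with each library's total set to 1000000) averaged 2765 for Vim, 2100 for Fn1 and 1197 for Col1a1, which encode vimentin, fibronectin and a type I collagen chain. The highest member, Lyz2, averaged 7.01 FPKM. Summed over genes, the 32 members came to between 7.09 and 57.6 FPKM per library, and 12 fibroblast markers to between 4998 and 11392 FPKM. The libraries held 54145701 to 94699657 counts. Eutherian CRX replicate 3 and metatherian CRX replicate 3 stood apart in the fibroblast markers, which summed there to 19095 and 24074 CPM (counts with the TMM-scaled library total set to 1000000) and to between 41363 and 54193 CPM in the other 7 libraries. Control replicate 3, at 44902 CPM, was the lowest control and lay within that range. Results for the members are also given with either of these CRX libraries left out, and with all 3 libraries numbered 3 left out, so that each condition keeps replicates 1 and 2.

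Of the 32 members, 5 passed the filter on low values used for the main test, edgeR's filterByExpr followed by a minimum of 2 on the mean FPKM of the highest condition. These are Siglecg, Tyrobp, Lyz2, Cd68 and Ctss. Without the FPKM step, 27 members could be tested among 14599 genes. The remaining 5, Cd52, Fcgr1, Lyz1, Cx3cr1 and Aif1, had too few counts and are given as counts. A gene that passes because it is high in 1 condition is bound to differ between conditions, so that the counts and medians over the members that passed are descriptions.

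The 250 bases upstream of the RefSeq start (GRCm38.p6) could be read for 24 of the 32 members. They are shown here for 4 members because the factor encoded by Spi1, itself a member, binds purine-rich sites with the core GAGGAA. Siglecg and the other 3 also differ in how they varied across the libraries. All 4 windows shown hold GAGGAA, while those of Lyz2, Fcer1g, Cd84 and Coro1a hold none. Each is written 5′ to 3′ on the strand of its gene. Capitals mark each GAGGAA or its reverse complement TTCCTC, and in Cd68 also GGATTA, the reverse complement of TAATCC, the core bound by CRX. The Siglecg sequence stops where its first counted exon begins.
Siglecg, chr7:43407989-43408192, + strand: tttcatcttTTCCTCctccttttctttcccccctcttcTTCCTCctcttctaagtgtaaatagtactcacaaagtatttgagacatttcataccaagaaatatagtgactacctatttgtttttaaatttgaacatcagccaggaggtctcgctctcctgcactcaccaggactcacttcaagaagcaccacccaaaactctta
Laptm5, chr4:130913066-130913315, + strand: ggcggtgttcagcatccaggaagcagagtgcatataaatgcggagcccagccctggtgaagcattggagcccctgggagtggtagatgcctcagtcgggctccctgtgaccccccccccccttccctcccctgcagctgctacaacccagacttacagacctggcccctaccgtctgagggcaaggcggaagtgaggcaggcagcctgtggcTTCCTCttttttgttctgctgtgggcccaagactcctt
C1qb, chr4:136886201-136886450, - strand: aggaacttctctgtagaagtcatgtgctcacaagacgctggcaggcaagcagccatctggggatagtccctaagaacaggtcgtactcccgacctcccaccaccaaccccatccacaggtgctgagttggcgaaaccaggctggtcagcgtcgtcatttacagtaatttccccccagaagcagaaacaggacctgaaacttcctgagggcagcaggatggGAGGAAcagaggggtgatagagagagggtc
Cd68, chr11:69666171-69666420, - strand: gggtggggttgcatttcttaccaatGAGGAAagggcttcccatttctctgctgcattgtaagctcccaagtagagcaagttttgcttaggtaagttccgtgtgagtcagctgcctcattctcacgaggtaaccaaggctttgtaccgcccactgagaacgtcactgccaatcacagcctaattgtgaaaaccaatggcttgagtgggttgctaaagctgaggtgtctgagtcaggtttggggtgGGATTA

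GAGGAA, read on both strands, was found in 15 of the 24 member windows (62.5%), and in 23.1% of the windows of 27025 genes. TAATCC was found in 2 of 24 (8.33%), beside 6.38% of all genes. For 2 members, Ptprc and Fcgr3, the whole window lies inside the gene as counted. For Siglecg, Mpeg1, Lcp1 and Aif1 the window runs partly into the gene as counted. Among the tested members that varied together across the libraries, as set out next, 7 of 13 windows held GAGGAA. Among the other tested members 6 of 7 did, so the share was not higher in those that varied together. Ptprc and Fcgr3 are included, and Fcgr1, Lyz1, Cx3cr1 and Aif1, which were not tested, are in neither count. The matches are letters in a window and not sites shown to be bound.

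Of the 27 members tested, 18 shared 1 pattern over the 9 libraries, and it did not follow the conditions alone. For each of the 27 members, the log2 CPM was compared with the mean of the other 26. Pearson's r was between 0.812 and 0.989 for 18 members, with Tyrobp (0.989), Laptm5 (0.986), Spi1 (0.979) and C1qb (0.979) at the top. The 9 libraries share depth and culture conditions, and r is a description. The summed level of these 18 genes was 79.9, 39.2 and 20.3 CPM in control replicates 1 to 3. It was 44.1, 37.0 and 8.24 CPM in the eutherian CRX libraries. It was 6.89, 11.4 and 17.3 CPM in the metatherian CRX libraries. Control replicate 1 was the highest library, and metatherian CRX replicate 1 the lowest. Control replicate 3 lay below eutherian CRX replicates 1 and 2, and eutherian CRX replicate 3 lay below metatherian CRX replicates 2 and 3.

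**Figure D1:**
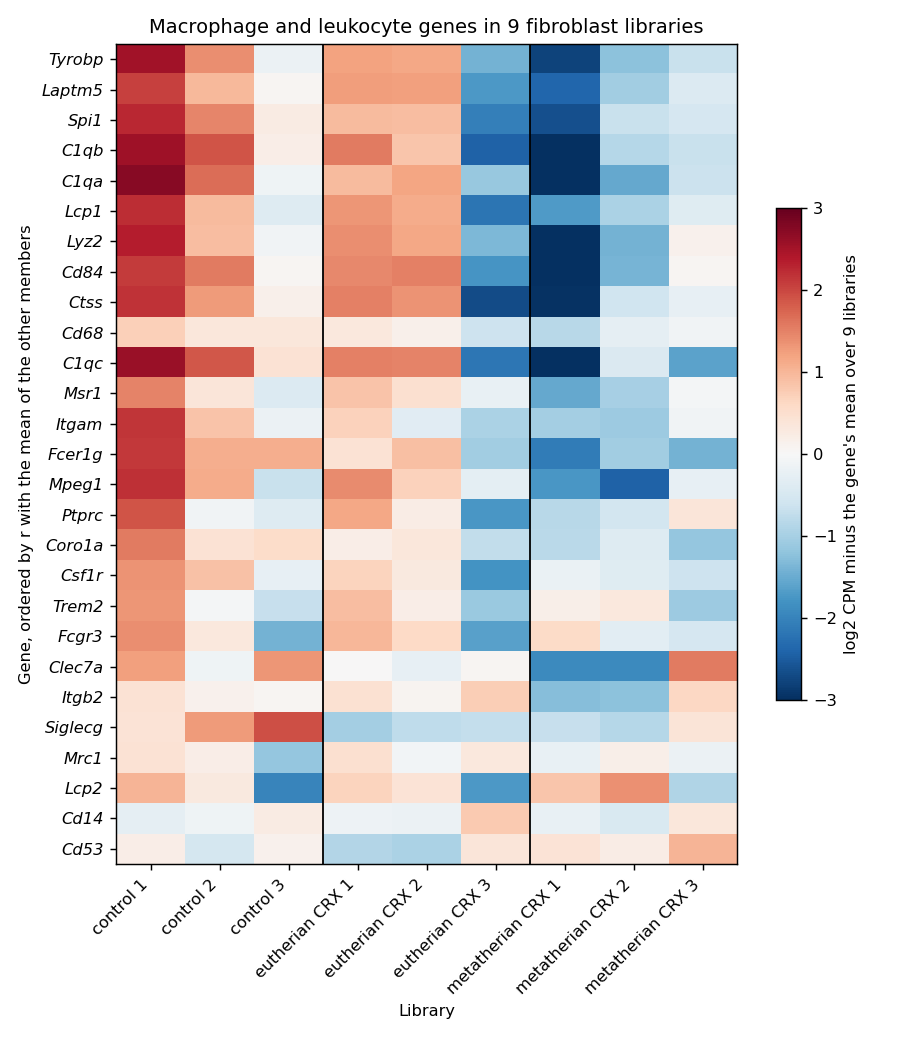
Levels of the 27 members that could be tested in the 9 libraries, as log2 CPM minus the mean of each gene over the libraries (colour, clipped at -3 and 3; red above, blue below), ordered by r with the mean of the other members. The upper 18 genes are red in control replicates 1 and 2 and eutherian CRX replicates 1 and 2 for the most part, and blue in eutherian CRX replicate 3 and metatherian CRX replicate 1, while Siglecg, lower down, is red in the 3 controls.

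The other 9 members had an r of at most 0.557 and went their own ways. They were Trem2 (0.557), Fcgr3 (0.555), Clec7a (0.50), Itgb2 (0.49), Siglecg (0.284), Mrc1 (0.264), Lcp2 (0.213), Cd14 (-0.338) and Cd53 (-0.524). Their summed level was between 8.24 and 15.4 CPM per library. The sets were split by r in these same libraries, so this range is not compared with that of the 18 genes. Siglecg, the gene that prompted the list, was thus not among the members that moved together.

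Siglecg (chromosome 7, 43408193 to 43418350, plus strand, mm10, with 11 exons) was at 3.07, 5.59 and 8.81 CPM in control replicates 1 to 3. It was at 1.11, 1.34 and 1.38 CPM with eutherian CRX and at 1.41, 1.26 and 3.01 CPM with metatherian CRX. All 3 controls lay above the 6 CRX libraries, by a small margin between control replicate 1 and metatherian CRX replicate 3. In the control group, Siglecg was highest in replicate 3 and the summed level of the 18 genes that varied together was highest in replicate 1.

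**Figure D2:**
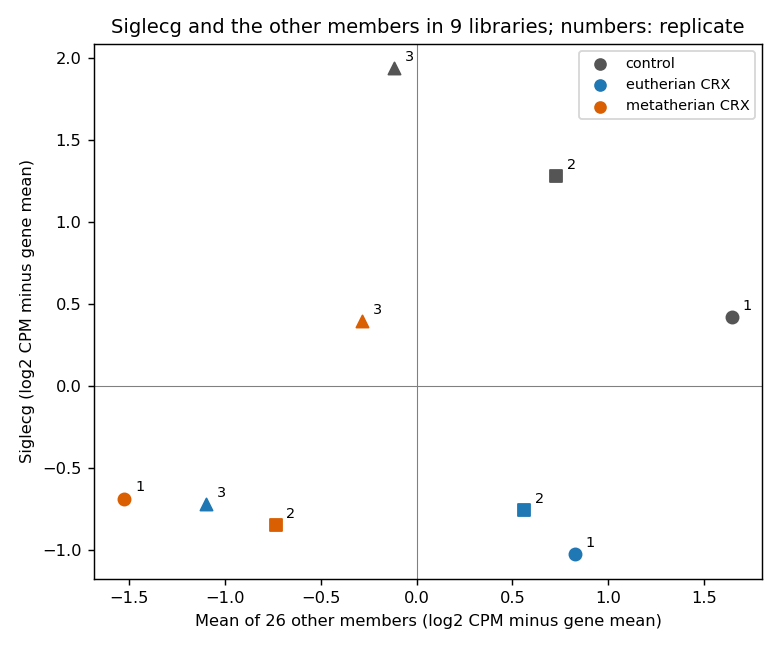
Siglecg (vertical axis, log2 CPM minus its mean) against the mean of the 26 other members tested (horizontal axis, same scale) in 9 libraries, with colour for condition and the number and shape for the replicate. The controls are above 0 for Siglecg at any level of the other members, and eutherian CRX replicates 1 and 2 combine a low Siglecg with other members above 0.

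Siglecg with eutherian CRX was at 1.28 ± 0.146 CPM (SD, n = 3), beside 5.82 ± 2.88 CPM in control (SD, n = 3), a log2 fold change of -2.07 (SE 0.31) with an adjusted p of 0.0493 in edgeR. The call is lost without the replicate block (edgeR adjusted p = 0.21), with upper-quartile factors (edgeR adjusted p = 0.05001) and with any 1 library left out other than metatherian CRX replicate 3. This is the comparison that chose the gene, and 0.604% of the 10100 genes tested in it passed. The metatherian CRX libraries averaged 1.89 ± 0.97 CPM (SD, n = 3), and their log2 fold change of -1.61 (SE 0.30) did not pass (edgeR adjusted p = 0.084). DESeq2 on all 9 libraries called Siglecg lower with metatherian CRX (adjusted p = 0.00025) and with eutherian CRX (adjusted p = 7.1e-07). The 2 comparisons share the control libraries. Between the CRX genes the log2 fold change was 0.46 (SE 0.30), higher with metatherian CRX, and did not pass (edgeR adjusted p = 0.61). It ran from 0.17 without eutherian CRX replicate 3 to 0.72 without metatherian CRX replicate 2. With the libraries numbered 3 left out, Siglecg did not pass the FPKM minimum, and in the wider fit its log2 fold change was -1.64 with metatherian CRX (edgeR adjusted p = 0.00406) and -1.79 with eutherian CRX (edgeR adjusted p = 0.0133). Of the other Siglec genes, Siglec1 of tissue macrophages had 1 to 14 counts per library, Cd22 of B cells was at 0 in all 9 libraries, and Cd24a, which encodes a ligand of the Siglecg protein on many cells, averaged 97.5 FPKM.

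Metatherian CRX against control was the comparison with the lowest median over the members, though no member passed in the edgeR fit of all 9 libraries, where DESeq2 called 7 of 27. Of the 5 members in the main test, 0 passed at an adjusted p under 0.05, beside 0.0297% of the 10100 genes. At an unadjusted p under 0.05, 3 of 5 were lower (Siglecg, Tyrobp and Cd68), beside 10.5% of all genes. Siglecg and Tyrobp passed the FPKM minimum through control alone, with means of 2.04 and 2.73 FPKM there. Siglecg was also chosen for being lower than in these controls. The count is therefore a description and no support. In the wider edgeR fit 0 of 27 passed, beside 0.0137% of 14599 genes, and 12 of 27 were lower at an unadjusted p under 0.05, beside 10.8%. The log2 fold change was below 0 in 24 of 27 members, beside 51.3% of all genes, and its median was -1.64, beside -0.01 over all genes. Both the count and the median depended on single libraries. The count at an unadjusted p under 0.05, in either direction, was 4 without metatherian CRX replicate 1 or 2, 5 without control replicate 1 or 2, and it was 17 when eutherian CRX replicate 3 was left out and 21 when metatherian CRX replicate 3 was. The median lay at -0.74 without metatherian CRX replicate 1 and at -2.80 when replicate 3 of that group was left out. In 11 of 27 members every metatherian CRX library was below every control library, beside 13.7% of all genes. In the other direction this held for 1 member, Cd53, beside 10.2%. Compared within replicate numbers, 12 of 27 members were lower in all 3 (44.4%), beside 26.9% of all genes. In bulk RNA, fewer macrophages and less of these RNAs per macrophage cannot be told apart.

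The fibroblast markers were measured in the same comparison. Of 12 markers, 0 passed and 10 had a log2 fold change below 0, beside 51.3% of all genes, with a median of -1.18. At an unadjusted p under 0.05, 8 were lower, beside 10.8% of all genes, and 1 was higher. Postn, which encodes the matrix protein periostin, was lowest among them, at -2.82, and Fn1 was at 0.39. Epithelial markers went the other way, with 4 of 5 tested above 0 and a median of 0.86, beside -0.01 over all genes. At an unadjusted p under 0.05, 3 were higher (Krt18, Krt19 and Epcam), none of which passed in edgeR. The part of these genes in the values of the members was not tested.

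**Figure D3:**
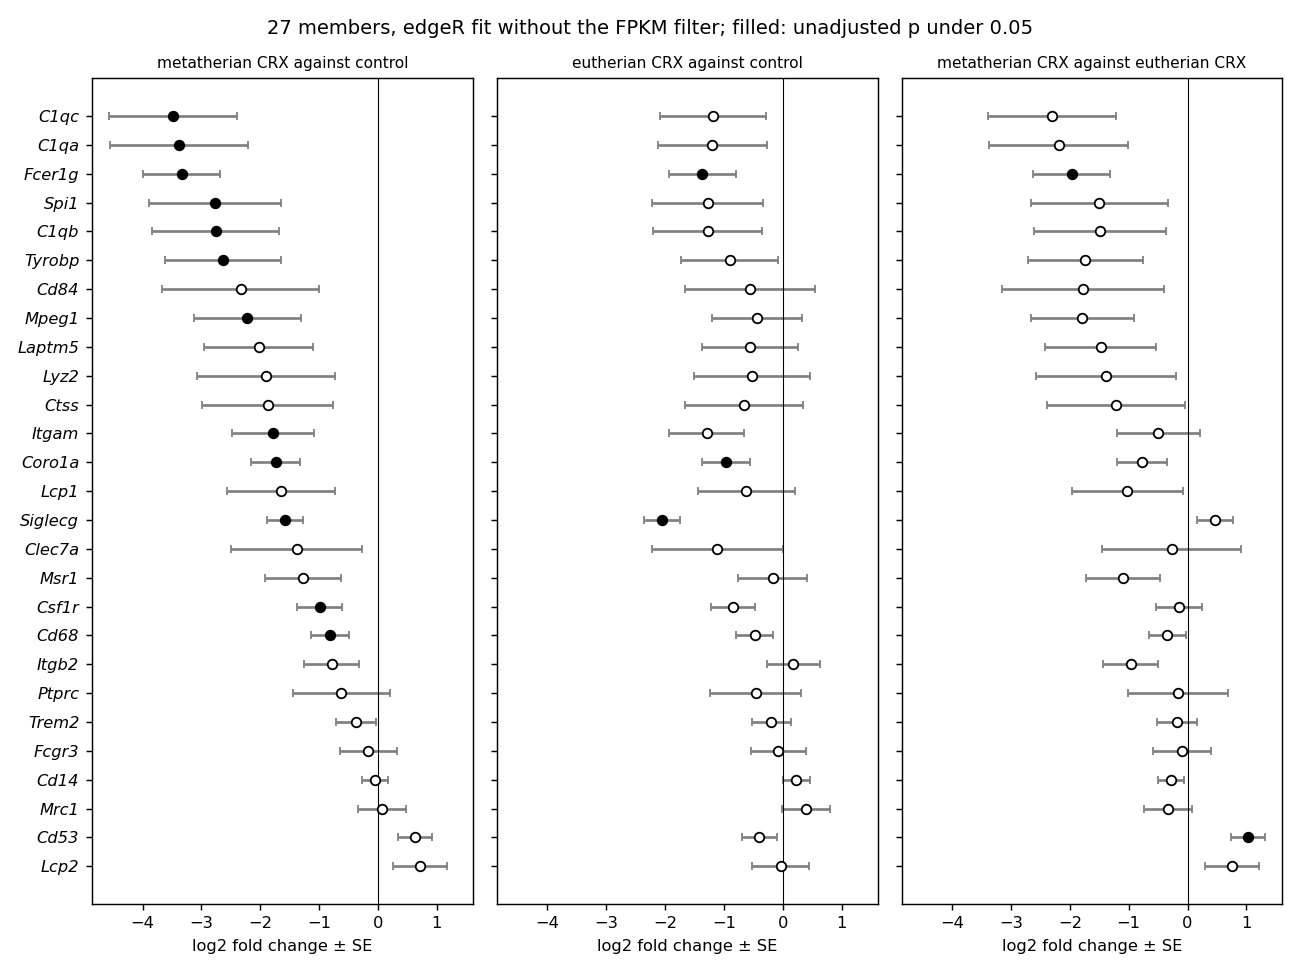
Log2 fold change (horizontal axis) with its SE for 27 members in each of the 3 comparisons, from the edgeR fit of 14599 genes, with filled points where the unadjusted p is under 0.05. Against control, 12 points are filled with metatherian CRX, all below 0, and 3 with eutherian CRX, and the bars of many members are wide.

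The lysosomal and secreted proteins held the most abundant members. Lyz2 (chromosome 10, 117277541 to 117282272, minus strand), the lysozyme of macrophages, was at 23.5, 8.63 and 4.21 CPM in control, at 12.1, 10.1 and 1.77 CPM with eutherian CRX and at 0.512, 1.68 and 4.97 CPM with metatherian CRX. The groups overlapped, since metatherian CRX replicate 3 was above control replicate 3. The log2 fold change of metatherian CRX against control was -1.93 (SE 1.20) and did not pass (edgeR adjusted p = 0.418). Single metatherian CRX libraries moved it from -0.78 without replicate 1 (edgeR adjusted p = 0.734) to -3.93 without replicate 3 (edgeR adjusted p = 0.0482), and without the libraries numbered 3 it was -3.76 in the wider fit (edgeR adjusted p = 0.0029). Lyz1, a paralogue next to it that is best known from Paneth cells, had 2 and 4 counts in control replicates 1 and 2 and 0 in the other 7 libraries. The coding parts of these paralogues are much alike, and how reads with several alignments were counted is not given in the sources used here, so the split between them is uncertain.

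Ctss (chromosome 3, 95526786 to 95556405, plus strand), the lysosomal protease cathepsin S, was at 8.75, 4.72 and 2.15 CPM in control. It was at 5.58, 4.99 and 0.278 CPM with eutherian CRX and at 0.225, 1.27 and 1.61 CPM with metatherian CRX. Every metatherian CRX library lay below every control, and eutherian CRX replicate 3 was below all of them but metatherian CRX replicate 1. The log2 fold change of metatherian CRX against control was -1.91 (SE 1.14, edgeR adjusted p = 0.399), and it ran from -0.91 without metatherian CRX replicate 1 to -3.62 without replicate 3 (edgeR adjusted p = 0.695 and 0.0971). Without the libraries numbered 3 it was -3.17 in the wider fit (edgeR adjusted p = 0.00696). Mpeg1, which encodes the pore-forming protein perforin-2, ranged from 0.186 CPM in metatherian CRX replicate 2 to 5.14 CPM in control replicate 1. In the wider fit its log2 fold change with metatherian CRX was -2.22 (SE 0.91, edgeR adjusted p = 0.228). It was -1.39 without metatherian CRX replicate 1 and -3.87 without the libraries numbered 3 (edgeR adjusted p = 9.5e-05).

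Cd68 (chromosome 11, 69664213 to 69666170, minus strand), a lysosomal glycoprotein used to stain macrophages, had the smallest ratio of its highest to its lowest library among the 5 members in the main test. It was at 5.95, 4.59 and 4.63 CPM in control, at 4.54, 4.01 and 2.33 CPM with eutherian CRX and at 2.01, 2.98 and 3.36 CPM with metatherian CRX. All 6 CRX libraries were below the lowest control. The log2 fold change was -0.84 (SE 0.32, edgeR adjusted p = 0.223) with metatherian CRX and -0.49 (SE 0.32, edgeR adjusted p = 0.762) with eutherian CRX. With metatherian CRX it ran from -0.51 when replicate 1 of that group was left out to -1.19 when replicate 3 was, and with eutherian CRX from -0.20 when replicate 3 of that group was left out to -0.74 when replicate 1 was. Without the libraries numbered 3, Cd68 was called with metatherian CRX in the wider fit (log2 fold change -1.06, edgeR adjusted p = 0.0161). Lyz2 spanned from 0.512 to 23.5 CPM in the same libraries and Cd68 from 2.01 to 5.95 CPM, although the 2 genes had an r of 0.969 and 0.952 with the other members.

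**Figure D4:**
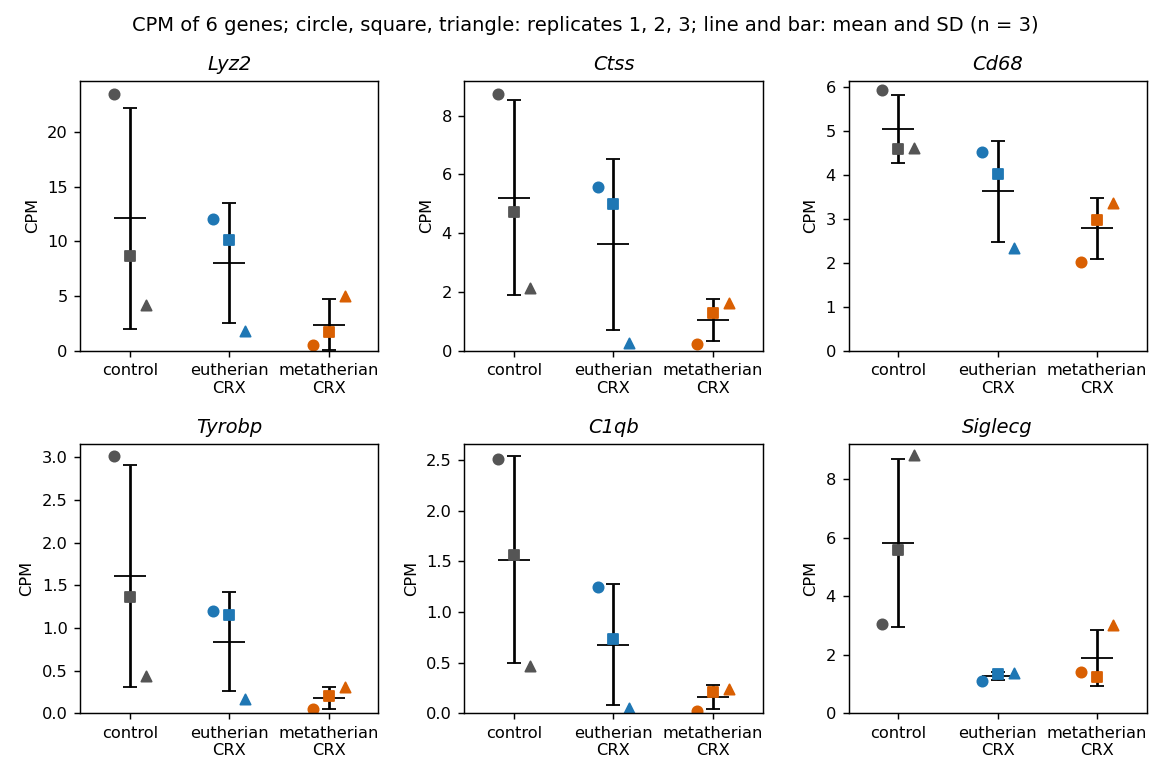
CPM of Lyz2, Ctss, Cd68, Tyrobp, C1qb and Siglecg by condition, with circle, square and triangle for replicates 1, 2 and 3 and the line and bar for the mean and SD (n = 3); each panel has its own linear axis from 0. In the first 5 genes replicate 3 is at or near the bottom of control, at the bottom of eutherian CRX and at the top of metatherian CRX, and in Siglecg control replicate 3 is the highest library.

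The receptors and adaptors came next. Tyrobp (chromosome 7, 30413788 to 30417582, plus strand), which encodes the ITAM adaptor DAP12, was at 3.01, 1.37 and 0.444 CPM in control. It was at 1.20, 1.15 and 0.172 CPM with eutherian CRX and at 0.05, 0.199 and 0.304 CPM with metatherian CRX. The highest metatherian CRX library was below the lowest control, and the log2 fold change was -2.73 (SE 0.95, edgeR adjusted p = 0.197). It was -1.67 without metatherian CRX replicate 1 (edgeR adjusted p = 0.518) and -4.12 without replicate 3 (edgeR adjusted p = 0.0339). Without the libraries numbered 3 it was -4.05 in the wider fit (edgeR adjusted p = 0.00231).

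Fcer1g, the Fc receptor gamma chain, was at 1.17, 0.558 and 0.559 CPM in control, at 0.349, 0.487 and 0.106 CPM with eutherian CRX and at 0.0375, 0.106 and 0.076 CPM with metatherian CRX. Both CRX groups lay below all controls. In the wider edgeR fit its log2 fold change was -3.33 (SE 0.65, adjusted p = 0.0813) with metatherian CRX and -1.37 (SE 0.57, adjusted p = 0.501) with eutherian CRX. With metatherian CRX it was called in 4 of 15 alternative settings. These included DESeq2 (adjusted p = 0.00035) and edgeR without the libraries numbered 3 (-3.51, adjusted p = 0.00678). The metatherian CRX value rests on 3, 8 and 5 counts. Trem2, a lipid-sensing receptor that signals through TYROBP, did not follow its adaptor. It ran from 0.63 to 2.63 CPM in control and from 0.471 to 1.29 CPM in the metatherian CRX libraries, with a log2 fold change of -0.38 (SE 0.34, edgeR adjusted p = 0.561). Fcgr3, an activating IgG receptor, overlapped between all groups (0.159 to 1.48 CPM), and Lcp2, the SLP-76 adaptor, had 2 to 41 counts and was highest in metatherian CRX replicate 2, with a log2 fold change of 0.72 against control (SE 0.46, edgeR adjusted p = 0.421). Fcgr1, the high-affinity IgG receptor, had 6 to 8 counts in control, 0 to 9 with eutherian CRX and 0 to 11 with metatherian CRX.

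The lineage factors were low. Csf1r, the CSF1 receptor, was at 6.66, 4.80 and 2.19 CPM in control, at 4.14, 3.20 and 0.728 CPM with eutherian CRX and at 2.27, 2.03 and 1.67 CPM with metatherian CRX. Control replicate 3 lay within the range of both CRX groups. Its log2 fold change with metatherian CRX was -0.99 (SE 0.38, edgeR adjusted p = 0.211), which ran from -0.69 without metatherian CRX replicate 1 (edgeR adjusted p = 0.562) to -1.53 without replicate 3 (edgeR adjusted p = 0.0364), and without the libraries numbered 3 it was -1.38 (edgeR adjusted p = 0.00139). Spi1 had 12 to 41 counts in control, 1 to 24 with eutherian CRX and 0 to 6 with metatherian CRX. The 2 ligands of the CSF1 receptor were measured beside it. Csf1 averaged 224 FPKM and Il34 1.51 FPKM, and their log2 fold changes with metatherian CRX were -0.44 (edgeR adjusted p = 0.202) and -0.06 (edgeR adjusted p = 0.921).

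The 3 chains of complement C1q, whose genes lie side by side on chromosome 4 between 136880145 and 136898844, were among the members with the lowest fold changes. Their summed level was 6.18, 3.56 and 1.12 CPM in control, 2.67, 2.21 and 0.185 CPM with eutherian CRX and 0.025, 0.504 and 0.456 CPM with metatherian CRX. In metatherian CRX replicate 1 this was 2 counts of C1qb and none of C1qa or C1qc, and a count of 0 there allows up to 0.0375 CPM, or more if both reads of a pair were counted. The log2 fold changes of metatherian CRX against control were -3.38 for C1qa (SE 1.18), -2.76 for C1qb (SE 1.09) and -3.48 for C1qc (SE 1.08), with edgeR adjusted p of 0.179, 0.215 and 0.148. Without metatherian CRX replicate 1 they were -2.17, -1.68 and -2.39, and without replicate 3 they were -5.30, -4.27 and -4.19. Without the libraries numbered 3 they were -5.29, -4.04 and -3.84, with edgeR adjusted p of 0.00306, 0.00339 and 0.011. DESeq2 on all 9 libraries called C1qa and C1qc. In all 3 genes the metatherian CRX libraries lay below the controls.

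The actin-binding, integrin and pan-leukocyte genes differed among themselves. Lcp1, the actin bundler L-plastin, was at 7.92, 3.25 and 1.28 CPM in control, at 4.20, 3.65 and 0.344 CPM with eutherian CRX and at 0.50, 0.848 and 1.29 CPM with metatherian CRX, so that the groups overlapped. Coro1a, the actin regulator coronin 1A, was at 1.34, 0.601 and 0.659 CPM in control, at 0.511, 0.561 and 0.252 CPM with eutherian CRX and at 0.237, 0.331 and 0.182 CPM with metatherian CRX, below every control in both CRX groups (edgeR adjusted p = 0.101 with metatherian CRX). With metatherian CRX, Coro1a was called by DESeq2 (adjusted p = 0.0138) and in edgeR without the libraries numbered 3 (adjusted p = 0.0382). Laptm5, a lysosomal protein of leukocytes, was at 3.22, 1.52 and 0.788 CPM in control, at 1.86, 1.83 and 0.212 CPM with eutherian CRX and at 0.125, 0.358 and 0.563 CPM with metatherian CRX, which did not overlap control. Its counted exons lie on 2 sequences of the assembly. Ptprc, the leukocyte common antigen CD45, had 22 to 85 counts in control, 8 to 79 with eutherian CRX and 18 to 36 with metatherian CRX. Cd84, a self-binding receptor of the SLAM family, had 21 to 83 counts in control, 5 to 67 with eutherian CRX and 0 to 20 with metatherian CRX. The integrin chain Itgam had 14 to 58 counts in control, 8 to 31 with eutherian CRX and 7 to 14 with metatherian CRX. Its partner Itgb2 was at 1.15 to 1.5 CPM in control, at 1.17 to 1.84 CPM with eutherian CRX, at 0.437 and 0.451 CPM in metatherian CRX replicates 1 and 2 and at 1.70 CPM in replicate 3.

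Of the pattern and scavenger receptors, Msr1 alone was among the 18 genes. Msr1, scavenger receptor A, was at 0.573 to 2.23 CPM in control and at 0.25 to 0.745 CPM with metatherian CRX. Cd14, the lipopolysaccharide co-receptor, was at 1.52, 1.65 and 2.16 CPM in control, at 1.65, 1.61 and 3.18 CPM with eutherian CRX and at 1.56, 1.31 and 2.31 CPM with metatherian CRX, highest in replicate 3 of each condition. Mrc1, the mannose receptor, ran from 0.43 to 1.41 CPM over all libraries. Clec7a, the beta-glucan receptor dectin-1, had 0 counts in metatherian CRX replicates 1 and 2 and 18 in replicate 3.

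Cd53, a tetraspanin of leukocytes, was the member whose metatherian CRX libraries all lay above the controls. It was at 1.84, 1.10 and 1.73 CPM in control, at 0.86, 0.812 and 2.07 CPM with eutherian CRX and at 2.11, 1.86 and 3.28 CPM with metatherian CRX. The metatherian CRX libraries were just above the controls, and the log2 fold change was 0.62 (SE 0.29, edgeR adjusted p = 0.279). The last 3 members were close to absent in every library. Cd52, a small surface glycoprotein, had 4 to 8 counts in control and 0 to 2 elsewhere. Cx3cr1, the fractalkine receptor of monocytes and microglia, had 4 to 9 counts in control and 0 to 2 elsewhere. Aif1, which encodes the macrophage marker IBA1, had 0 to 2 counts. Its counted exons lie on 4 sequences of the assembly, and how reads that match several of them were handled is not given in the sources used here.

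Metatherian CRX against eutherian CRX showed no member past the test. It asks whether the opossum and the human protein differ in effect. In edgeR 0 of 5 and 0 of 27 members passed, as did 0% of all genes in both fits, and at an unadjusted p under 0.05 there were 2 of 27, Fcer1g lower and Cd53 higher, beside 4.26% of all genes lower and 7.41% higher. The median log2 fold change over the 27 members was -0.97, and it ran from -0.19 without metatherian CRX replicate 1, with -0.56 and -0.61 when replicate 2 of eutherian or of metatherian CRX was left out, to -2.06 without metatherian CRX replicate 3, where 17 of 27 members had an unadjusted p under 0.05. Lyz2 was at -1.40 (SE 1.22, edgeR adjusted p = 0.713), Tyrobp at -1.82 (SE 0.96, edgeR adjusted p = 0.521), Ctss at -1.23 (SE 1.20, edgeR adjusted p = 0.748) and Cd68 at -0.35 (SE 0.32, edgeR adjusted p = 0.73). Leaving out metatherian CRX replicate 1 or 3 moved these values between -0.29 and -3.20 for Lyz2, -0.80 and -3.16 for Tyrobp, -0.13 and -2.61 for Ctss and -0.001 and -0.67 for Cd68. Without the libraries numbered 3, Lyz2 (-3.30), Tyrobp (-3.22) and Ctss (-2.84) were called in the wider fit, with edgeR adjusted p of 0.00505, 0.00736 and 0.0114, and Cd68 was not (edgeR adjusted p = 0.0537). Eutherian CRX replicate 3 was below 1 or more of the metatherian CRX libraries in each of these 4 genes. In no member were the libraries of the 2 groups apart in either direction, beside 5.45% of all genes lower and 6.13% higher.

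Eutherian CRX against control held 1 member past the test, Siglecg, which was chosen from it, 1 of 27 in the wider fit beside 0.623% of genes. At an unadjusted p under 0.05, 3 of 27 members were lower (Siglecg, Fcer1g and Coro1a), beside 7.16% of all genes. The log2 fold change was below 0 in 24 of 27 members, the same count as with metatherian CRX, beside 49% of all genes, and the median was -0.56. This median was 0.02 without control replicate 1 and -0.12 without eutherian CRX replicate 3, and between -0.87 and -1.12 when control replicate 3 or eutherian CRX replicate 1 or 2 was left out. Of the 12 fibroblast markers, 11 were below 0 here as well, beside 49% of all genes, with a median of -0.39. At an unadjusted p under 0.05, 3 of these markers were lower, beside 7.16% of all genes. In 4 of 27 members (Siglecg, Fcer1g, Coro1a and Cd68) the 3 eutherian CRX values were all under the lowest control, beside 8.94% of all genes. Within replicate numbers, 13 of 27 members were lower in all 3 (48.1%), beside 19.5% of all genes. The controls are the same libraries as in the comparison with metatherian CRX. Tyrobp was at -0.91 (SE 0.79), Ctss at -0.68 (SE 1.02) and Lyz2 at -0.54 (SE 1.02), each with an edgeR adjusted p of at least 0.832. Over single libraries left out, Tyrobp ran from -1.31 to -0.52, Ctss from -1.45 to 0.003 and Lyz2 from -1.14 to 0.48. Eutherian CRX replicates 1 and 2 were within the range of the controls in Lyz2, Ctss and Tyrobp, and replicate 3 was below all 3 controls in each.

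The calls depend on the libraries numbered 3. With metatherian CRX replicate 3 left out, 14 of 27 members fell against control at an adjusted p under 0.05 in edgeR, beside 3.31% of genes that were called lower. With all 3 libraries numbered 3 left out, a choice made after the values were seen, 19 of 26 members fell against control, beside 11.8% of genes. In the same 6 libraries 14 members were lower and 1, Cd53, higher with metatherian CRX than with eutherian CRX, beside 9.63% and 12.6% of genes, and 1 was lower with eutherian CRX than with control, Siglecg, beside 3.34% of genes. With eutherian CRX replicate 3 left out, 3 of 28 members (Csf1r, Fcer1g and Siglecg) were lower with metatherian CRX than with control, beside 4.98%. DESeq2 on all 9 libraries called 7 of 27 members lower with metatherian CRX than with control, beside 5.01% of genes. They were C1qa, C1qc, Coro1a, Fcer1g, Mpeg1, Siglecg and Tyrobp. The fit without all libraries numbered 3 rests on 2 libraries per condition. With metatherian CRX replicate 1 left out, 0 of the 5 members in the main test were called, and the log2 fold changes of 4 of them lay nearer 0 (Lyz2, Ctss, Cd68 and Tyrobp).

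Other leukocyte and macrophage genes, 79 in all, of which 77 were in the table and 53 could be tested, also had a median below 0. Against control with metatherian CRX, 0 passed in edgeR, 16 of 53 were lower at an unadjusted p under 0.05, beside 10.8% of all genes, and 3 were higher, and the median was -1.31, beside -0.01 over all genes. Emr1, which encodes the macrophage antigen F4/80, had 162, 68 and 16 counts in control, 116, 107 and 10 with eutherian CRX and 0, 6 and 24 with metatherian CRX. The 3 highest of the list by FPKM, Arhgdib (258 FPKM), Gpnmb (118 FPKM) and Cyba (63.1 FPKM), are genes that other cells express as well, and their log2 fold changes were 0.66, 0.48 and -0.16. The 10 lymphocyte markers summed to at most 0.225 CPM per library, with Cd3e, Cd3d, Cd79b and Ncr1 at 0 in all 9, and 8 granulocyte markers to at most 1.00 CPM. S100a8, the highest of the latter by FPKM, averaged 1.12 FPKM, above most of the members. The 7 mast cell markers came to at most 0.711 CPM and 8 erythroid markers to at most 0.461 CPM.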

How the data were processed

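PolyA RNA of 9 fibroblast libraries (3 control, 3 eutherian CRX, 3 metatherian CRX) was sequenced in paired reads. The authors aligned the reads with STAR to mm10 and deposited raw counts per gene made with featureCounts, and no normalization or pooling was applied to them. The strand setting, the annotation release and how multiply aligned reads were handled are not given in the sources used here. Counts of 2, 4 and 6 outnumbered counts of 1, 3 and 5 in every library, as when both reads of a pair are counted. Upper limits for a gene at 0 were set at 3 counts and cover counting error only. They are higher in proportion if each fragment gave a pair of counts.

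Counts were tested with edgeR 4.0.16 in R 4.3.3 (TMM factors, quasi-likelihood test with the replicate number as a block, Benjamini-Hochberg adjustment over all genes tested, threshold 0.05). The block was used because the study reports a paired preparation of its samples. Deviations from the condition mean correlated above 0.1 in 8 of 9 pairs of libraries with the same number (lowest 0.0034) and in 5 of 18 pairs with different numbers. Since 1 pair fell short, the numbers are not shown to mark pairs. The main fit kept 10100 genes by filterByExpr and an FPKM minimum of 2 on the highest condition mean, and a second fit kept 14599 genes by filterByExpr alone. FPKM was computed from counts and summed exon lengths, and log2 CPM used a prior count of 2. Alternatives were other scaling factors, other filters, no replicate block, DESeq2 1.42.0, each library left out and the 3 libraries numbered 3 left out. The fits were tested on simulated data.

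All 32 members were named, those in the main fit with full statistics. The members and lists were chosen with earlier results of these data known. The lists were other leukocyte and macrophage genes, the Siglec family and its ligand, ligands of macrophages, and markers of fibroblasts, lymphocytes, granulocytes, mast cells, erythroid cells, endothelium, epithelium and megakaryocytes. Of genes that are no member, the 15 most like the members' mean pattern and the 3 highest of a list were to be named.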

Additional observations from a re-analysis of the deposited data

How the results depend on the processing

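The replicate block mattered for Siglecg with eutherian CRX. Without the block 0 members were called in either fit, against 1 with it, and its adjusted p was 0.21 in edgeR. With upper-quartile factors 0 of 5 were called (adjusted p = 0.05001 for Siglecg), and with the libraries numbered 3 left out 0 in the main filter, which Siglecg then did not pass. Leaving out 1 library gave 0 to 1 calls in this comparison in both fits. Of the single libraries left out, Siglecg stayed called without metatherian CRX replicate 3 and not without the others. For metatherian CRX against control the block changed no call. DESeq2 called 1 of 5 and 7 of 27 members, leaving out the libraries numbered 3 gave 4 and 19 calls, and leaving out 1 library gave 0 to 3 calls in the main fit and 0 to 14 in the wider one, with calls when eutherian CRX replicate 3 or metatherian CRX replicate 3 was left out. The median log2 fold change of the 5 members ran from -3.62 to -0.91 over single libraries left out and was -3.47 without the libraries numbered 3. For metatherian against eutherian CRX, 3 members in the main fit and 15 in the wider one were called without the libraries numbered 3, single libraries left out gave 0 and 0 to 1 calls, and the median ran from -2.61 to -0.13 and was -3.03 without the libraries numbered 3. With eutherian CRX against control, Lyz2 ran from -1.14 (without eutherian CRX replicate 2) to 0.48 (without control replicate 1) over single libraries left out and was also above 0, at 0.01, without eutherian CRX replicate 3. Ctss ran from -1.45 (without eutherian CRX replicate 1) to 0.003 (without eutherian CRX replicate 3). The cause was not tested. Many members have fewer than 100 counts per library, which limits their precision.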

Other observations

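The 15 genes most like the mean pattern of the 27 members over the 9 libraries (r of 0.953 to 0.986, a description over 9 libraries of shared depth) were Il7r, Inpp5d, Clec12a, Hk3, Myo1f, C5ar1, AF251705, Lilrb4, Dock2, Cd36, Rac2, Arhgap25, Zfp108, Pcdhb20 and Gp49a, of which 5 were on the leukocyte list. Clec12a, a myeloid lectin receptor, had 103, 47 and 8 counts in control, 36, 35 and 4 with eutherian CRX and 0, 2 and 8 with metatherian CRX. C5ar1, the receptor of the complement fragment C5a, had 84, 72 and 12 counts in control, 61, 42 and 8 with eutherian CRX and 0, 4 and 12 with metatherian CRX. Of the 53 leukocyte genes tested, 32 had an r above 0.7, beside 8.43% of all genes.

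Of 9 ligands that macrophages respond to, Csf1, Ccl7 (74.4 FPKM) and Ccl2 (61.6 FPKM), the latter both chemokines for monocytes, were the highest, and Il34 (1.51 FPKM), Cd200 (0.771 FPKM), Csf2 (0.00771 FPKM) and Csf3 (0.00652 FPKM) the lowest. Of 7 such genes tested, 0 passed in edgeR in any comparison, with 1 higher (Cx3cl1) and 1 lower (Csf1) at an unadjusted p under 0.05 with metatherian CRX against control. Platelet and endothelial genes had levels of their own. Ppbp, a platelet chemokine, had 1034, 1732 and 314 counts in control, 1890, 1520 and 18 with eutherian CRX and 1348, 891 and 92 with metatherian CRX, while Pf4 had at most 14 counts. The 5 megakaryocyte markers, these included, summed to 4.12 to 28.04 CPM. The 8 endothelial markers summed to 19.5 to 31.2 CPM per library, and the 8 epithelial markers to 7.88 to 31.1 CPM. Ly6g, a neutrophil surface protein, had 1 to 5 counts in control and 25 to 33 with metatherian CRX, and did not pass (edgeR adjusted p = 0.158). Of the other granulocyte genes, S100a8 had 9 to 32 counts in control, 40 to 55 with eutherian CRX and 22 to 47 with metatherian CRX (log2 fold change of eutherian CRX against control 1.47, edgeR adjusted p = 0.27). Camp had 0 to 10 counts, Elane 0 to 4, and S100a9, Mpo, Ngp and Ltf 0 to 2.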
